A study of Mus musculus with 44 samples.

Results

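The 9 genes described here encode the amyloid precursor protein family (App, Aplp1 and Aplp2) and proteins that process it. Bace1, Psen2, Ncstn and Adam10 encode enzymes that cut it or subunits of such enzymes. Mme and Ide encode peptidases that degrade the amyloid beta peptide. The 9 genes were chosen by symbol from the 54146 genes of a count table of cultured primary mouse astrocytes and microglia. Of the 9, all had counts in both cell types. The table holds 44 libraries of untreated cells from mice of 4 Apoe genotypes, which the labels call Apoe WT, APOE 33, APOE 44 and Apoe KO (below WT, APOE33, APOE44 and KO). Each cell type had 6 WT, 6 APOE33, 6 APOE44 and 4 KO libraries. Cells were purified and grown in media made for human microglia and astrocytes. The labels give no age, strain or construct. Every group holds libraries of both sexes, so its replicates cannot all come from the same animal. Whether replicates of the same sex came from separate animals or cultures is not said. Every p-value below therefore measures only the spread between these libraries, which may be technical in part.

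APP is a single-pass membrane protein that is cut in one of several ways. ADAM10, the main alpha-secretase, cuts within the amyloid beta stretch and releases a soluble ectodomain, whereas BACE1, the beta-secretase, makes the cut that starts amyloid beta. The gamma-secretase complex, built from a presenilin such as PSEN2, nicastrin (NCSTN), an APH1 subunit and PEN-2, then cuts within the membrane. Neprilysin (MME) and insulin-degrading enzyme (IDE) are peptidases that break the released peptide down. APLP1 and APLP2 share the overall build of APP but lack the amyloid beta stretch, and APLP1 is best known from neurons. In brain, astrocytes are the main source of apolipoprotein E, the lipid carrier that Apoe encodes.

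The members lie on 6 chromosomes of the GRCm38 build (GENCODE M21 gene bounds). App (ENSMUSG00000022892.11) spans chr16:84949685-85173766 on the minus strand, Aplp1 (ENSMUSG00000006651.8) chr7:30434982-30445535 on the minus strand and Aplp2 (ENSMUSG00000031996.17) chr9:31149557-31211815 on the minus strand. Chromosome 9 also holds Bace1 (ENSMUSG00000032086.12, chr9:45838580-45864399, plus strand) and Adam10 (ENSMUSG00000054693.14, chr9:70678997-70780229, plus strand). Chromosome 1 holds both gamma-secretase subunits, Psen2 (ENSMUSG00000010609.15, chr1:180227004-180263438, minus strand) and Ncstn (ENSMUSG00000003458.12, chr1:172066013-172082795, minus strand). Mme (ENSMUSG00000027820.12) spans chr3:63241537-63386030 on the plus strand and Ide (ENSMUSG00000056999.14) chr19:37268743-37337852 on the minus strand. Exons of App, Bace1 and Ncstn overlap exons of genes on the other strand (Gm49227 for App, Gm16536, Gm49338 and Rnf214 for Bace1, and Copa for Ncstn). Whether the counting used strand is not given in the sources used here, so reads of such partners cannot be told apart from reads of these 3 members.

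The promoters of the 3 family genes are shown because these paralogues, alike in protein build, differed in level between cell types and genotypes. RefSeq promoter sequence (GRCm38.p6) was matched for 8 of the 9 members (11 promoters, all but Bace1), out of 32851 promoters in the table. The 250 bases before each RefSeq transcript start are printed 5′ to 3′ on the gene's strand, with capitals marking the GC box letters GGGCGG or their reverse complement CCGCCC. The windows are chr16:85173708-85173957 for App, chr7:30445583-30445832 for Aplp1 and chr9:31211849-31212098 for Aplp2, all on the minus strand.
App: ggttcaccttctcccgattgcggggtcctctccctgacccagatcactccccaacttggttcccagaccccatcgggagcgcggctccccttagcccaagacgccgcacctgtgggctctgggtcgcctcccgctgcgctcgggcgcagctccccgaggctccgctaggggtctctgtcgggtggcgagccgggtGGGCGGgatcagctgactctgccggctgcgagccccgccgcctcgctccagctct
Aplp1: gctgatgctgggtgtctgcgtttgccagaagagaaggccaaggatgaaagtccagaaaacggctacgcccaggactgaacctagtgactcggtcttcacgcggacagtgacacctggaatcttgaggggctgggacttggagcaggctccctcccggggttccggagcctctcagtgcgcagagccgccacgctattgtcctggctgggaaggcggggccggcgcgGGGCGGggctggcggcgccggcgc
Aplp2: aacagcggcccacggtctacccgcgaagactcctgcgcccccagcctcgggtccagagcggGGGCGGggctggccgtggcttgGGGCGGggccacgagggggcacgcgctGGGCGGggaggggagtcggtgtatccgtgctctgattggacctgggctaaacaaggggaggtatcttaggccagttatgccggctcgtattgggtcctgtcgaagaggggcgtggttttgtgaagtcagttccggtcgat
The GC box letters occur 1 time in the App window, 1 time in the Aplp1 window and 3 times in the Aplp2 window, and 32.7% of all promoters of the same length hold them on either strand. CCAAT (or ATTGG) occurs 2 times in the Aplp2 window and in neither of the other windows, against 33.8% of all promoters. TATAAA (or TTTATA) is in none of the 3 windows, against 12.4% of all promoters. All 3 windows are rich in G and C (70.8% for App, 66.0% for Aplp1 and 66.4% for Aplp2, where the median promoter has 52.4%). These are counts of letters and describe no binding.

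Library totals ran from 83239599 to 143150569 counts. Counting error is therefore small for all members but Mme in microglia, where a count of 0 allows up to 3 counts. All 32 APOE33, APOE44 and KO libraries are labelled batch 1 and all 12 WT libraries batch 2, so WT genotype and batch cannot be told apart and comparisons with WT are kept apart below. Mouse Apoe, the altered gene, was at 7185 ± 632 CPM (the count scaled to a common library total; mean ± SD, n = 6) in WT astrocytes. It was at 28.4 ± 5.19, 29.2 ± 5.03 and 13.4 ± 1.75 CPM in APOE33, APOE44 and KO astrocytes (n = 6, 6 and 4). WT microglia had 43210 ± 4159 CPM (n = 6), and no other microglial library exceeded 66.7 CPM. Astrocyte APOE33 replicate 1 carries the genotype tag WT beside a title and source that say APOE33. It was kept as APOE33. With it included, the 6 APOE33 astrocyte libraries had 23.4 to 35.8 CPM of Apoe, against 6104 to 7759 CPM in WT astrocytes. KO libraries of each cell type come from 1 female and 3 males, and fits below include sex. Summed over 14 astrocyte markers, astrocyte libraries had 14600 to 22170 CPM and microglial libraries 30.0 to 125 CPM. Summed over 16 microglia markers, microglial libraries had 18670 to 31640 CPM and astrocyte libraries 178 to 732 CPM.

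Per length, the 2 cell types ranked the members differently. In astrocytes the median over 22 libraries, in RPKM (the CPM divided by the exon length in kilobases), was highest for Aplp2 (134.7) and App (110.0), followed by Adam10 (41.4), Ncstn (24.8), Aplp1 (22.5), Ide (17.4), Bace1 (11.5), Psen2 (6.35) and Mme (4.27). In microglia Aplp2 again led (167.5 RPKM), and Adam10 (115.9) and Ncstn (49.7) stood above App (45.6). The other microglial medians were 14.5 RPKM for Psen2, 7.91 for Ide, 3.30 for Aplp1, 1.66 for Bace1 and 0.00497 for Mme. The astrocyte ranges of Aplp2 (125.4 to 148.1 RPKM) and App (91.4 to 124.7 RPKM) did not overlap. Aplp1 in astrocytes ranged so widely (11.3 to 54.2 RPKM) that it overlapped Adam10, Ncstn, Ide and Bace1, and Psen2 (5.53 to 7.51 RPKM) overlapped Mme (2.79 to 6.003 RPKM). In microglia the neighbours Aplp2 (132.1 to 210.8 RPKM) and Adam10 (66.0 to 138.2 RPKM) overlapped, as did Ncstn (38.4 to 54.4 RPKM) and App (39.7 to 61.2 RPKM), and Aplp1 (1.42 to 4.67 RPKM) and Bace1 (1.45 to 1.94 RPKM). Exon length covers every annotated exon, so a gene read mainly from a short transcript is understated on this scale.

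**Figure D1:**
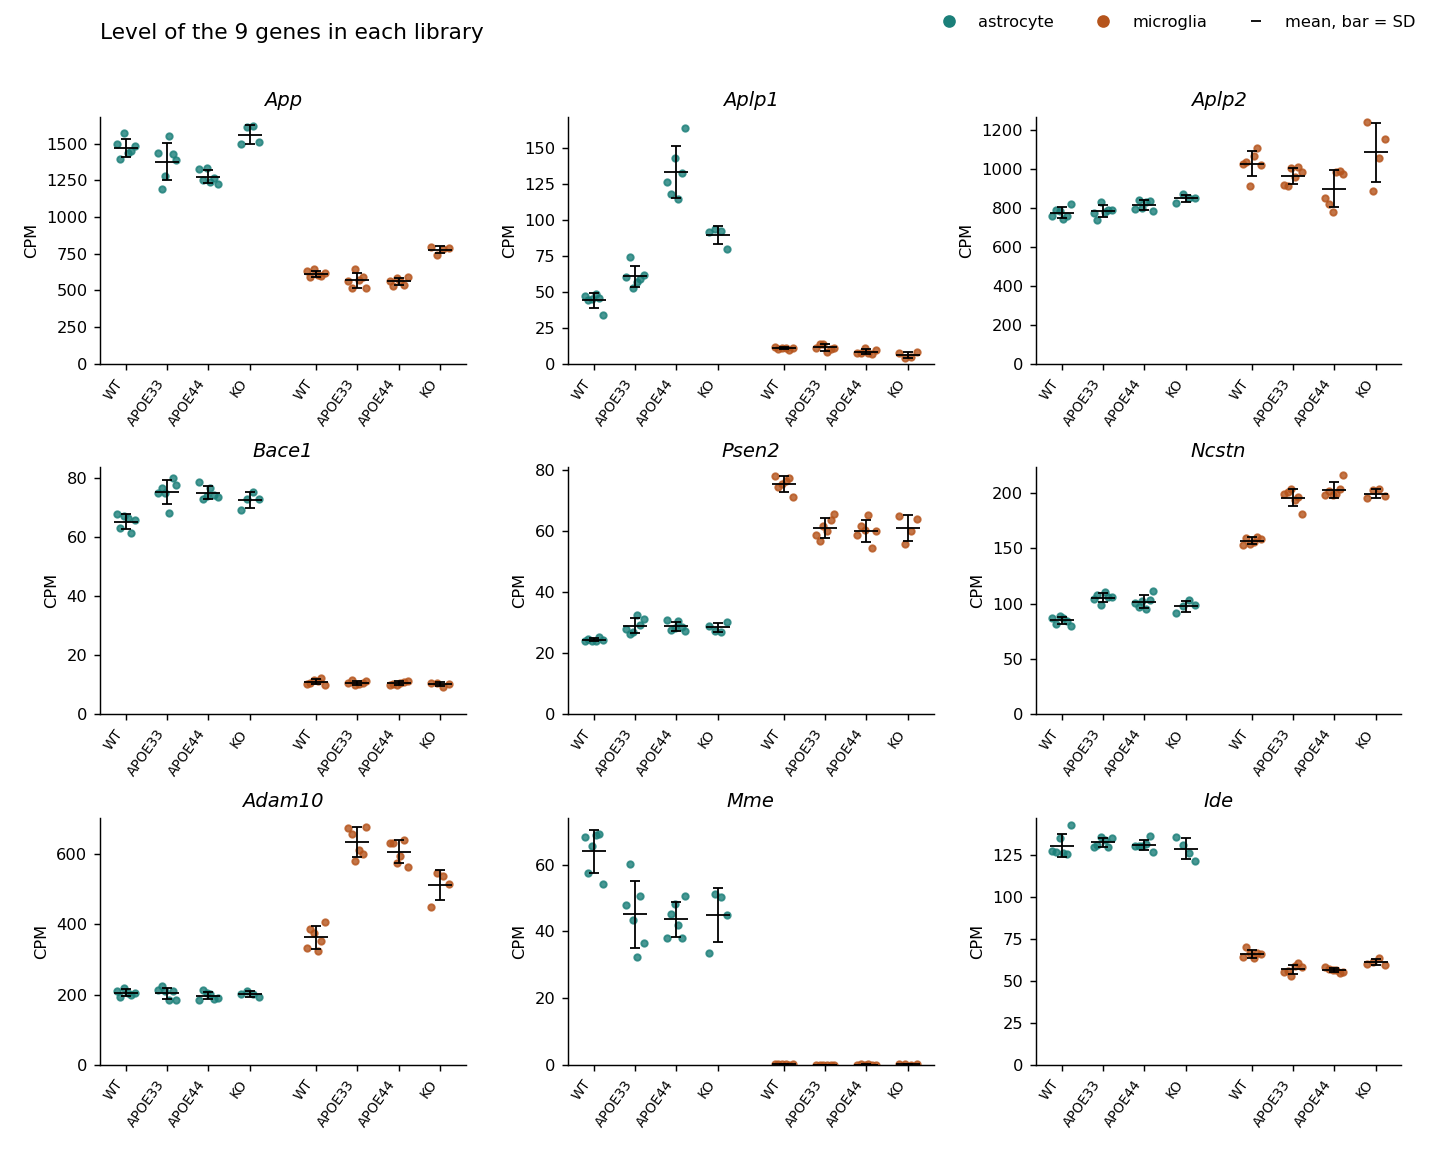
Level of the 9 genes in each library, in CPM from 0 on each vertical axis, by genotype and cell type. Points are libraries, and bars give the group mean and SD. Aplp1 in APOE44 astrocytes (114.6 to 163.5 CPM) lies above every other group of that gene, App in KO microglia (742 to 796 CPM) lies above the other microglial groups, and Mme is near 0 throughout microglia.

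Which of these genes each cell type expresses was asked in batch 1 (16 libraries of each type) and again in WT (6 of each). All 9 members differed between the cell types in both comparisons by edgeR's quasi-likelihood test with Benjamini-Hochberg adjustment over all genes tested (called at adjusted p under 0.05), 4 higher in microglia and 5 lower. So did 90.9% of the 21647 genes tested in batch 1 and 89.5% of the 19331 tested in WT, so a call by itself sets no member apart and the sizes carry the description. Aplp2, Psen2, Ncstn and Adam10 were higher in microglia, and App, Aplp1, Bace1, Mme and Ide were higher in astrocytes. The medians over members were -0.65 and -0.49 log2 (microglia minus astrocytes), against -0.25 and -0.13 over all genes tested. Levels below are CPM on library totals, whereas log2 differences are scaled by TMM, a factor that centres most genes.

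App, the precursor itself, was expressed in both cell types, and more in astrocytes. Astrocyte libraries had 1188, 1430 and 1620 CPM (lowest, median and highest of 22) and microglial libraries 515.6, 592.8 and 795.5 CPM. The ranges were apart in every genotype, and the log2 difference was -0.65 (SE 0.044, adjusted p = 3.4e-14) in batch 1 and -0.77 (SE 0.037, adjusted p = 2.6e-10) in WT. Aplp2, the most abundant member per length, went the other way, with 737, 791.3 and 870.1 CPM in astrocytes and 776, 984 and 1239 CPM in microglia. Its log2 difference was 0.78 (SE 0.0476) in batch 1 and 0.90 (SE 0.0485) in WT, and the ranges of the cell types overlapped in APOE44. Aplp1 differed most of the family. Astrocytes had 34.1, 67.8 and 163.5 CPM and microglia 4.27, 9.95 and 14.1 CPM, a log2 difference of -2.91 (SE 0.105) in batch 1 and -1.55 (SE 0.0615) in WT. The smaller value in WT goes with the lower Aplp1 level of WT astrocytes described below.

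The make-up of the family differed accordingly. Of the summed RPKM of the 3 genes, Aplp2 made up 50.2% ± 1.82 in astrocytes and 76.8% ± 1.97 in microglia (SD, n = 22 each). App made up 40.0% ± 3.64 and 21.8% ± 2.09, and Aplp1 9.78% ± 4.19 and 1.45% ± 0.424. The sum itself was 271.5 ± 15.8 RPKM in astrocytes and 218.1 ± 22.4 RPKM in microglia.

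Among the cutting enzymes, the alpha- and beta-secretase went opposite ways. Adam10 was at 184, 203.6 and 223.9 CPM in astrocytes (lowest, median and highest of 22) and at 324.3, 569.6 and 679 CPM in microglia. The log2 difference was 2.04 (SE 0.032) in batch 1 and 1.31 (SE 0.047) in WT. Bace1 was at 61.4, 73.1 and 79.9 CPM in astrocytes and at 9.21, 10.54 and 12.3 CPM in microglia, a difference of -2.32 (SE 0.030) in batch 1 and -2.08 (SE 0.050) in WT. No library of either gene fell into the range of the other cell type. The ratio of Adam10 to Bace1 per length was 3.65 ± 0.336 in astrocytes and 65.1 ± 15.5 in microglia (SD, n = 22 each). Both gamma-secretase subunits were higher in microglia. Psen2, a catalytic subunit, had 23.9 to 32.5 CPM in astrocytes and 54.6 to 78.2 CPM in microglia (log2 1.59, SE 0.040, in batch 1 and 2.12, SE 0.029, in WT). Ncstn, which encodes nicastrin, had 79.9 to 111.6 and 152.7 to 216.3 CPM (1.48, SE 0.028, and 1.38, SE 0.025).

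The 2 peptidases were both higher in astrocytes, but by very different amounts. Ide was at 121.7 to 142.7 CPM in astrocytes and at 52.7 to 70.2 CPM in microglia, a log2 difference of -0.66 (SE 0.023) in batch 1 and -0.49 (SE 0.040) in WT. Mme was a gene of astrocytes here, with 3754 to 8853 counts per astrocyte library and 0 to 32 counts per microglial library. The fitted log2 difference of -9.40 (SE 0.184) in batch 1 and -8.31 (SE 0.177) in WT rests on those few counts. In 2 microglial libraries (APOE33 replicate 1 and APOE44 replicate 3) Mme had 0 counts, which allows up to 0.0326 and 0.0285 CPM.

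RNA of one cell type in libraries of the other was at a low level. The 14 astrocyte markers stood in microglia at a median of 0.241% of their astrocyte level (highest 2.5%, Aldh1l1), and the 16 microglia markers in astrocytes at a median of 0.975% of their microglial level. The microglial level was 41.5% of the astrocyte level for App, 45.5% for Ide, 14.7% for Aplp1 and 14.4% for Bace1, all above every astrocyte marker, and 0.116% for Mme, below the marker median. The astrocyte level was 80.4% of the microglial one for Aplp2, 49.8% for Ncstn, 43.8% for Psen2 and 35.7% for Adam10. In these bulk libraries, fewer expressing cells and less RNA per cell cannot be told apart.

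The sizes depend on scaling. With library totals alone in place of TMM, the median gene moved to -0.75 log2 in batch 1 and -0.62 in WT, and the share of called genes that were higher in microglia moved from 44.3% to 31.7% in batch 1 and from 46.5% to 33.6% in WT. All 9 members kept their sign and call, but Aplp2 was at 0.27 (WT 0.41), Ide moved to -1.17 (WT -0.98) and App to -1.16 (WT -1.26).

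**Figure D2:**
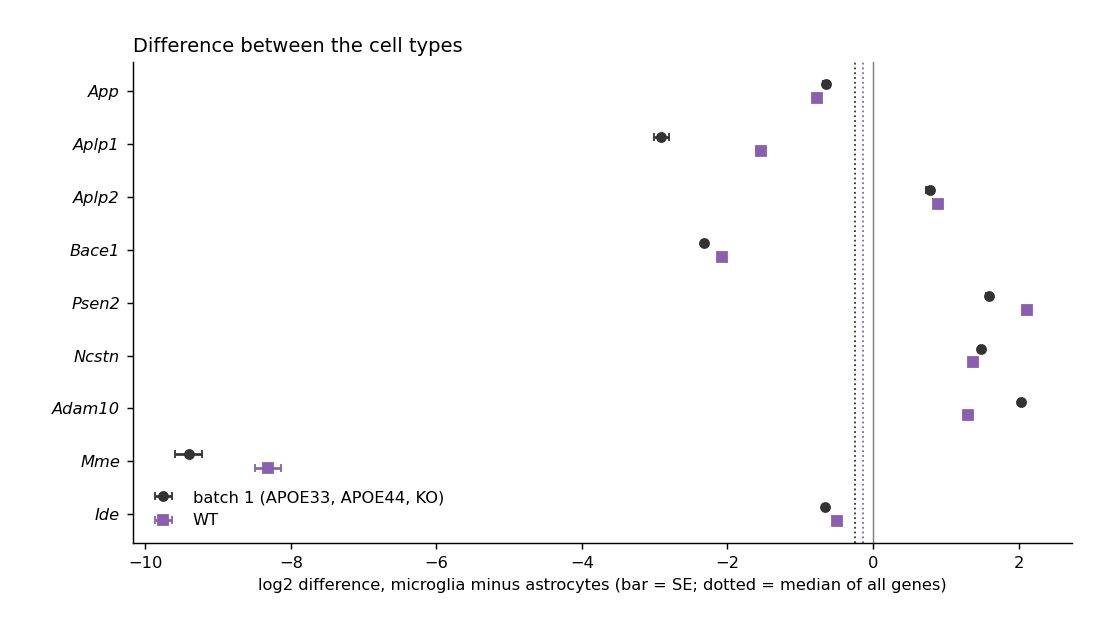
Log2 difference between microglia and astrocytes (horizontal axis) for each of the 9 genes, in batch 1 and in WT. Points are fitted differences, bars their SE, and dotted lines the median of all genes tested (-0.25 and -0.13). Psen2, Ncstn, Adam10 and Aplp2 lie to the right of 0 in both comparisons and the other 5 genes to the left, with Mme at -9.40 and -8.31.

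APOE44 was compared with APOE33 within batch 1. As the labels give no strain or construct, the human allele cannot be told apart from other differences between these mice. In astrocytes Aplp1 was 2.20-fold higher in APOE44 (log2 1.14, SE 0.086, adjusted p = 7.8e-07), the 1 member of 9 called, where 0.703% of the 20481 genes tested were called. APOE33 libraries had 60.4, 74.2, 52.8, 56.9, 58.8 and 61.4 CPM (replicates 1 to 6), and APOE44 libraries 126.4, 118.0, 143.1, 114.6, 132.8 and 163.5 CPM. Every APOE44 library lay above every APOE33 library. The other 8 members stayed within 0.12 log2 of no difference, with 95% intervals reaching at most 0.31 log2 (Mme). For App the difference was -0.12 (SE 0.069, adjusted p = 0.62) and for Bace1 -0.02 (SE 0.038, adjusted p = 0.94).

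In microglia 0 of the 8 members tested were called by edgeR's quasi-likelihood test, against 0.840% of the 17143 genes tested. DESeq2 called 0 as well, and 1 member, Aplp1, had an unadjusted p under 0.05. Mme did not pass the filter on low counts (0 to 10 counts in these groups). Microglial Aplp1 went from 8.18, 10.9 and 14.1 CPM in APOE33 (lowest, median and highest) to 6.61, 7.69 and 10.9 CPM in APOE44, and the groups overlapped (log2 -0.44, SE 0.194, adjusted p = 0.39). Its 95% interval, unadjusted, ran from -0.82 to -0.06 log2. The test of the difference between the cell types called 1 of 9 members, again Aplp1 (microglia minus astrocytes -1.58, SE 0.223, adjusted p = 3.0e-04), where 0.296% of all genes tested were called. The other 8 lay between -0.14 (Aplp2) and 0.70 (Mme, SE 0.616), with Ncstn at 0.11, App at 0.10, Adam10 at -0.03, Psen2 at -0.01, Ide at 0.01 and Bace1 at 0.00.

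Removal of Apoe was compared with APOE33 and with APOE44 within batch 1. These comparisons share the 4 KO libraries. Against APOE33, 1 of 9 members was called in astrocytes (17.2% of all genes tested), and 4 of 8 in microglia (22.7%). Against APOE44, 2 of 9 were called in astrocytes (22.7%) and 4 of 8 in microglia (26.9%). The difference of the KO effect between the cell types was called for 5 of 9 members (12.7% of all genes tested). Of the other 4, Aplp2 was at 0.19 (SE 0.126), Bace1 at 0.11 (SE 0.0751), Psen2 at 0.14 (SE 0.105) and Mme at 1.70 (SE 0.653, adjusted p = 0.088). The Mme value rests on 0 to 12 counts per microglial library, and was called by DESeq2 (1.76, adjusted p = 0.0088) and without microglial APOE33 replicate 6 (2.30, adjusted p = 0.030). Same-numbered astrocyte and microglial libraries have the same sex in 22 of 22 pairs, but the labels do not say whether they share an animal. A fit with the replicate number as a block ended 3 of the 5 calls (App, adjusted p = 0.055, Ncstn, 0.051, and Adam10, 0.071). With library totals alone, the share of higher among the genes called fell from 47.8% to 29.9% for KO against APOE33 and from 50.4% to 32.6% for KO against APOE44 in microglia, and from 48.6% to 27.3% for the difference between the cell types, and the median gene of the last moved from -0.03 to -0.12 log2.

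App rose in KO microglia. The 4 KO libraries had 795.5, 742.0, 783.7 and 789.9 CPM, against 515.6, 569.2 and 646.2 CPM in APOE33 (lowest, median and highest of 6) and 530.2, 564.8 and 594.5 CPM in APOE44. All 4 lay above every APOE33 and APOE44 library. The log2 difference was 0.52 (SE 0.079, adjusted p = 2.6e-04) against APOE33 and 0.54 (SE 0.077, adjusted p = 1.1e-04) against APOE44, or 1.43-fold and 1.45-fold. Both calls held without any 1 library. In astrocytes KO App was at 1500 to 1620 CPM, against 1188 to 1551 CPM in APOE33 and 1228 to 1335 CPM in APOE44. It was called against APOE44 (0.26, SE 0.0775, adjusted p = 0.022) but not against APOE33 (0.14, SE 0.081, adjusted p = 0.23). The astrocyte call was lost without APOE44 replicate 5 (adjusted p = 0.054), KO replicate 2 (0.058) or KO replicate 3 (0.066). The KO effect against APOE33 was larger in microglia by 0.37 log2 (SE 0.116, adjusted p = 0.033), and this call was lost without any of 6 libraries (astrocyte KO replicates 1 and 4, microglial APOE33 replicate 6 and microglial KO replicates 1, 3 and 4, adjusted p 0.054 to 0.13). The summed astrocyte markers were at 77.4 to 113.5 CPM in KO microglia, 30.0 to 124.9 CPM in APOE33 and 38.8 to 116.3 CPM in APOE44. Of the 13 astrocyte markers tested in microglia, 2 were called in KO against APOE33, where 22.7% of all genes tested were. Both markers were higher (Aldh1l1 1.93 and Aldoc 1.68 log2). Their part in the App difference was not tested.

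Against APOE33, Aplp1 moved in opposite directions in the 2 cell types. Against APOE44 it was lower in KO in astrocytes and not called in microglia. KO astrocytes had 91.6, 93.6, 92.2 and 79.8 CPM (replicates 1 to 4), above all APOE33 libraries (log2 0.55, SE 0.098, adjusted p = 0.0020) and below all APOE44 libraries (-0.59, SE 0.096, adjusted p = 6.4e-04). KO microglia had 7.63, 4.27, 4.73 and 8.31 CPM, against 8.18 to 14.1 CPM in APOE33 (-0.78, SE 0.227, adjusted p = 0.022) and 6.61 to 10.9 CPM in APOE44 (-0.34, SE 0.221, adjusted p = 0.28). The KO and APOE33 ranges overlapped in microglia. That call was lost without APOE33 replicate 3 (adjusted p = 0.069), KO replicate 2 (0.060) or KO replicate 3 (0.072), whereas the astrocyte calls held without any 1 library. The difference between the cell types was -1.34 (SE 0.259, adjusted p = 8.4e-04). In the same microglial libraries the summed oligodendrocyte lineage markers were at 175.3 to 205.5 CPM in KO. They were at 207.4 to 312.6 CPM in APOE33 and 272.2 to 353.4 CPM in APOE44. Against APOE33, where 11.9% of all genes tested were called lower in KO, 7 of the 13 markers were. Their part in the Aplp1 difference was not tested.

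Aplp2 passed the test for KO in 1 of the 4 comparisons within batch 1. KO microglia had 1239, 887.2, 1055 and 1150 CPM, against 776.0, 910.7 and 985.8 CPM in APOE44 (lowest, median and highest), and the ranges overlapped. The log2 difference of 0.36 (SE 0.105, adjusted p = 0.017) was 0.25 (adjusted p = 0.14) without KO replicate 1, the only female KO microglial library, and missed the threshold without KO replicate 4 (adjusted p = 0.053). Against APOE33 it was 0.27 (SE 0.107, adjusted p = 0.086), 0.36 (adjusted p = 0.017) without KO replicate 2 and 0.27 (adjusted p = 0.0496) by DESeq2. In astrocytes it was 0.08 (SE 0.053) against APOE33 and 0.03 (SE 0.051) against APOE44.

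Of the enzymes, Adam10 was lower in KO microglia. KO libraries had 450.1, 546.1, 539.1 and 515.7 CPM, below all of APOE33 (579.7, 634.9 and 679.0 CPM) and all of APOE44 (564.7, 614.2 and 640.0 CPM; lowest, median and highest of 6 in each). The log2 difference was -0.26 (SE 0.055, adjusted p = 0.0028) against APOE33 and -0.19 (SE 0.053, adjusted p = 0.015) against APOE44. Without KO replicate 1, the lowest library, the second was -0.15 (adjusted p = 0.092). Of 16 microglia markers, 5 were called in KO against APOE33 microglia, all lower, where 11.9% of all genes tested were called lower. The part of these markers in the Adam10 difference was not tested. Astrocyte Adam10 did not pass the test in any genotype comparison, with KO at 192.8 to 211.3 CPM and -0.02 (SE 0.058) against APOE33. The difference between the cell types was -0.25 (SE 0.082, adjusted p = 0.040), and it was lost without any of 9 libraries (astrocyte APOE33 replicates 4 and 6, astrocyte KO replicates 2 and 3, microglial APOE33 replicates 1 and 6 and microglial KO replicates 1, 2 and 4, adjusted p 0.050 to 0.14).

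Bace1, Psen2 and Ncstn were called in none of the 6 comparisons among APOE33, APOE44 and KO in either cell type. For Bace1 the differences ran from -0.10 (KO against APOE33 in astrocytes, adjusted p = 0.14) to 0.03 log2, and for Psen2 from -0.06 to 0.11 log2. Ncstn was at -0.14 (SE 0.054, adjusted p = 0.084) in KO against APOE33 astrocytes and at 0.11 (SE 0.047, adjusted p = 0.12) in microglia, and passed the threshold without astrocyte APOE44 replicate 6 (adjusted p = 0.042) or microglial APOE33 replicate 3 (adjusted p = 0.010). The difference between these effects was called (0.24, SE 0.073, adjusted p = 0.028), and was 0.15 (adjusted p = 0.12) with library totals alone. It was lost without any of 4 libraries (astrocyte KO replicate 1, microglial APOE33 replicate 6 and microglial KO replicates 1 and 3, adjusted p 0.055 to 0.15).

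Ide, the peptidase found in both cell types, was slightly higher in KO microglia. KO libraries had 60.0, 61.4, 63.5 and 59.6 CPM, APOE33 52.7, 57.0 and 60.4 CPM and APOE44 54.7, 56.5 and 58.4 CPM (lowest, median and highest of 6). KO was above all APOE44 libraries and overlapped APOE33. The log2 differences were 0.18 (SE 0.045, adjusted p = 0.0093) and 0.19 (SE 0.044, adjusted p = 0.0042). The call against APOE33 was lost without KO replicate 1 (adjusted p = 0.053), and with library totals alone (0.11, adjusted p = 0.079). Astrocyte Ide was at 121.7 to 136.6 CPM in the 3 genotypes and was not called. The difference between the cell types was 0.24 (SE 0.061, adjusted p = 0.0076), and 0.15 (adjusted p = 0.055) with library totals alone. Mme in astrocytes was at 33.6 to 51.2 CPM in KO and 32.2 to 60.2 CPM in APOE33, with a difference of 0.00 (SE 0.171).

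**Figure D3:**
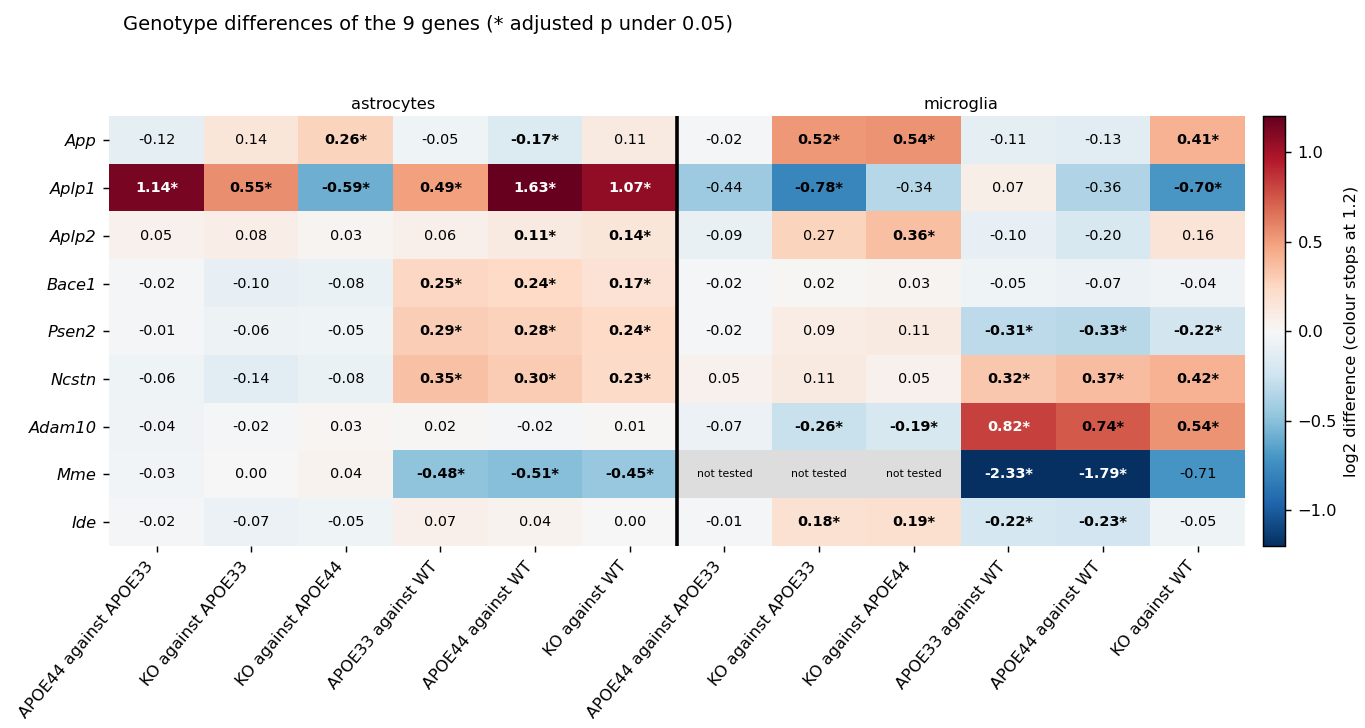
Log2 difference of each of the 9 genes (rows) in 6 genotype comparisons in astrocytes and 6 in microglia (columns). Colour and number give the difference, colour stops at 1.2, an asterisk marks an adjusted p under 0.05, and grey cells were not tested. Aplp1 is positive against WT in every astrocyte column (0.49, 1.63 and 1.07), and Adam10 is positive against WT in every microglial column (0.82, 0.74 and 0.54).

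Comparisons with WT set batch 1 against batch 2, and genotype and batch cannot be told apart in them. In astrocytes 5 of 9 members were called in APOE33, 7 in APOE44 and 6 in KO, where 39%, 41.7% and 38.3% of the 21287 genes tested were called. With library totals alone, the share of higher among genes called in APOE33 astrocytes moved from 51.6% to 41.4%. In microglia 5 of 9 were called in each (44.8%, 45.4% and 42.4% of the 18079 genes tested), and the share of higher in KO moved from 49.4% to 37.3% with library totals alone.

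Aplp1 in WT astrocytes was at 34.1, 45.5 and 48.5 CPM (lowest, median and highest), below every library of the other genotypes. The order APOE44, KO, APOE33, WT held with no overlap between neighbours, at means of 133 ± 18.1, 89.3 ± 6.39, 60.8 ± 7.27 and 44.1 ± 5.13 CPM (SD, n = 6, 4, 6 and 6). The log2 differences from WT were 1.63 (SE 0.086), 1.07 (SE 0.094) and 0.49 (SE 0.085). In microglia KO was lower than WT by 0.70 log2 (-0.70, SE 0.191, adjusted p = 0.0056), and APOE33 (0.07) and APOE44 (-0.36) were not called. Of the summed family RPKM in astrocytes, Aplp1 was 15.7% ± 2.01 in APOE44, 10.1% ± 0.597 in KO, 7.80% ± 1.23 in APOE33 and 5.64% ± 0.723 in WT (SD).

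Adam10 was higher than in WT in microglia of all 3 other genotypes. WT libraries had 332.3, 386.3, 375.5, 324.3, 352.1 and 407.5 CPM, all below the lowest KO library (450.1 CPM). The log2 differences were 0.82 (SE 0.052) in APOE33, 0.74 (SE 0.052) in APOE44 and 0.54 (SE 0.058) in KO (adjusted p of 2.7e-10, 8.8e-10 and 2.5e-07). In astrocytes the 3 differences lay between -0.02 and 0.02. Microglial Bace1 did not pass the test against WT. The microglial ratio of Adam10 to Bace1 per length was 43.1 ± 6.18 in WT, 76.7 ± 4.01 in APOE33, 74.97 ± 6.53 in APOE44 and 65.9 ± 8.78 in KO (SD). Summed microglia markers moved alongside, at 18670 to 22910 CPM in WT microglia, 27550 to 31640 in APOE33, 26350 to 31430 in APOE44 and 24570 to 25910 in KO. Their part in the Adam10 difference was not tested.

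The gamma-secretase subunits differed from WT in both cell types. Ncstn was higher in all 6 comparisons (0.35, 0.30 and 0.23 log2 in APOE33, APOE44 and KO astrocytes, and 0.32, 0.37 and 0.42 in microglia), with no WT library in the range of another group. Psen2 was higher than in WT in astrocytes (0.29, 0.28 and 0.24) and lower in microglia (-0.31, -0.33 and -0.22), again with no overlap, at 71.2 to 78.2 CPM in WT microglia and 54.6 to 65.8 CPM in the others. Bace1 was higher than in WT in astrocytes (0.25, 0.24 and 0.17), and not called in microglia (-0.07 to -0.04). These values were not tested for a difference between the cell types.

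Against WT, App was lower in APOE44 astrocytes (-0.17, SE 0.0635, adjusted p = 0.038) and higher in KO microglia (0.41, SE 0.067, adjusted p = 4.1e-05). Aplp2 was higher in APOE44 astrocytes (0.11, SE 0.042, adjusted p = 0.041) and KO astrocytes (0.14, SE 0.048, adjusted p = 0.020). The astrocyte calls hung on single libraries. The App call was lost without any of 8 libraries (WT replicates 1, 3 and 6, APOE44 replicates 2, 4, 5 and 6 and KO replicate 2, adjusted p 0.052 to 0.091). The Aplp2 call in APOE44 was lost without any of 7 (WT replicates 1, 2, 4 and 5 and APOE44 replicates 2, 4 and 5, adjusted p 0.060 to 0.11), and that in KO without WT replicate 5 (adjusted p = 0.064). In microglia, calls that the full set did not make appeared without 1 library for App in APOE33 and APOE44 (without APOE33 replicate 3, adjusted p = 0.0054 and 0.026), Aplp1 in APOE44 (without APOE44 replicate 3, 0.036) and Aplp2 in KO (without KO replicate 2, 0.026) and in APOE44 (without WT replicate 3, APOE44 replicate 5 or KO replicate 2, 0.041 to 0.044).

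Of the peptidases, Mme in astrocytes was at 54.3, 67.1 and 69.3 CPM in WT and lower by 0.48 log2 in APOE33 (-0.48, SE 0.128), 0.51 in APOE44 (-0.51, SE 0.127) and 0.45 in KO (-0.45, SE 0.147). The KO value was -0.27 (adjusted p = 0.14) without KO replicate 1, whose 33.6 CPM was the lowest of the 4. In microglia the fitted Mme differences of -2.33 in APOE33 and -1.79 in APOE44 compare 6 to 32 counts with 0 to 10 counts, are no size of effect, and the second was lost without WT replicate 3 (adjusted p = 0.074). Ide was lower than WT in APOE33 (-0.22, SE 0.038) and APOE44 microglia (-0.23, SE 0.0375), where no library reached the WT range, and not called in KO (-0.05, SE 0.0425), where library totals alone gave -0.11 (adjusted p = 0.023).

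**Figure D4:**
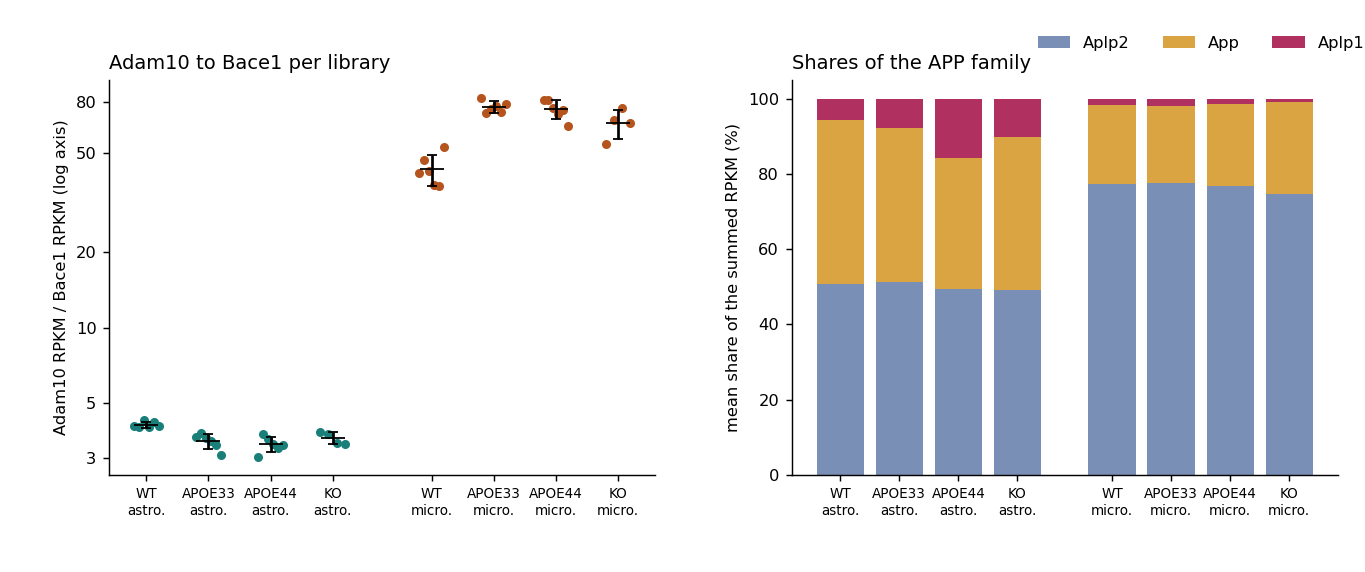
Left, ratio of Adam10 to Bace1 RPKM per library on a log axis, with group mean and SD. Right, mean share of Aplp2, App and Aplp1 in their summed RPKM, in percent. The ratio lies at 3.03 to 4.24 in all astrocyte libraries and at 37.0 to 83.2 in all microglial ones, and the Aplp1 share is largest in APOE44 astrocytes (15.7%).

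Other markers moved with genotype beside Aplp1 in astrocytes. The summed level of 12 neuron markers was 232 to 245 CPM in WT, 238 to 337 in APOE33, 261 to 322 in APOE44 and 317 to 337 in KO astrocytes. In the median astrocyte library 4 of these markers exceeded 1 CPM (Map2 217 CPM, Stmn2 33.8, Syp 11.6 and Tubb3 5.79), and Rbfox3, Snap25 and Gad2 were at 0. By edgeR's quasi-likelihood test 0 of the 8 neuron markers tested were called in APOE44 or KO against APOE33 (0 and 2 at an unadjusted p under 0.05, and DESeq2 called 0 and 1). Of all genes tested, 0.703% and 17.2% were called in these comparisons, and 9.91% and 32.6% had an unadjusted p under 0.05. The 13 oligodendrocyte lineage markers summed to 168 to 188, 249 to 292, 287 to 390 and 221 to 233 CPM in WT, APOE33, APOE44 and KO, where Aplp1 stood higher in KO than in APOE33. By edgeR 0 of 12 of them were called in APOE44 against APOE33 (3 at an unadjusted p under 0.05, 0 by DESeq2). In KO against APOE33, where 8.83% of all genes tested were called lower, 5 of the 12 were. The 14 endothelial, mural and fibroblast markers summed to 386 to 558, 331 to 439, 322 to 417 and 163 to 359 CPM. By median over the astrocyte libraries, 7 of the 13 oligodendrocyte lineage markers exceeded 1 CPM. Cnp (135.0 CPM) and Olig1 (60.8) were the highest, and Sox10 (0.345), Mag (0.0997) and Mog (0.0867) were low. Of the 14 endothelial, mural and fibroblast markers 5 exceeded 1 CPM. Acta2 (225.4 CPM) and Pdgfrb (118.0) were the highest, and Pecam1 (0.0937) was low. Whether such cells were present, and their part in the Aplp1 level, was not tested.

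Genes beside Aplp1 were examined because Aplp1 lies on the same chromosome as Apoe, 10.74 Mb from it. The window of 1 Mb on either side was chosen after the Aplp1 values were seen. In APOE44 against APOE33 astrocytes, 4 of the 80 other genes tested there were called (5%, where 0.703% of all genes were). Kirrel2, whose start lies 12.15 kb from that of Aplp1, rose by 2.59 log2 (SE 0.375, adjusted p = 0.0020), and Nphs1, which encodes nephrin and starts 12.78 kb away, by 2.60 (SE 0.392, adjusted p = 0.0031). Both were expressed at a low level. Kirrel2 was at 0.195 to 0.711 CPM in APOE33 and 1.35 to 3.44 CPM in APOE44, and Nphs1 at 0.106 to 0.782 and 1.30 to 3.49 CPM. Atp4a, 266.7 kb away, rose by 1.33 (SE 0.231, adjusted p = 0.0087), and Alkbh6, at -136.8 kb on the other side, fell by 0.33 (-0.33, SE 0.069, adjusted p = 0.036). Psenen, the PEN-2 subunit gene, 118.1 kb from Aplp1, was at -0.03 (SE 0.062, adjusted p = 0.94).

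The group means of Kirrel2 stood in the same order as those of Aplp1 (2.11 CPM in APOE44, 0.846 in KO, 0.367 in APOE33 and 0.340 in WT), and those of Nphs1 did so except that APOE33 (0.346 CPM) was below WT (0.534 CPM). The other called neighbours stood in other orders, Atp4a with its highest mean in KO and 0.353 CPM in APOE44, and Alkbh6 with its highest in APOE33 (13.5 CPM) and its lowest in APOE44 (10.75 CPM). In KO against APOE33 astrocytes Kirrel2 was at 1.32 (SE 0.435, adjusted p = 0.049) and Nphs1 at 2.499 (SE 0.462, adjusted p = 0.0028), and 18 of the 80 genes were called (22.5%, against 17.2% of all genes). In microglia both had 0 to 6 counts in every library. There 5 of the 76 genes tested were called in APOE44 against APOE33 (6.58%, against 0.840% of all genes), among them Alkbh6 (-0.65, SE 0.052, adjusted p = 1.3e-06), the 1 gene called in both cell types. The part that the position near Apoe plays in the Aplp1 difference was not tested.

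**Figure D5:**
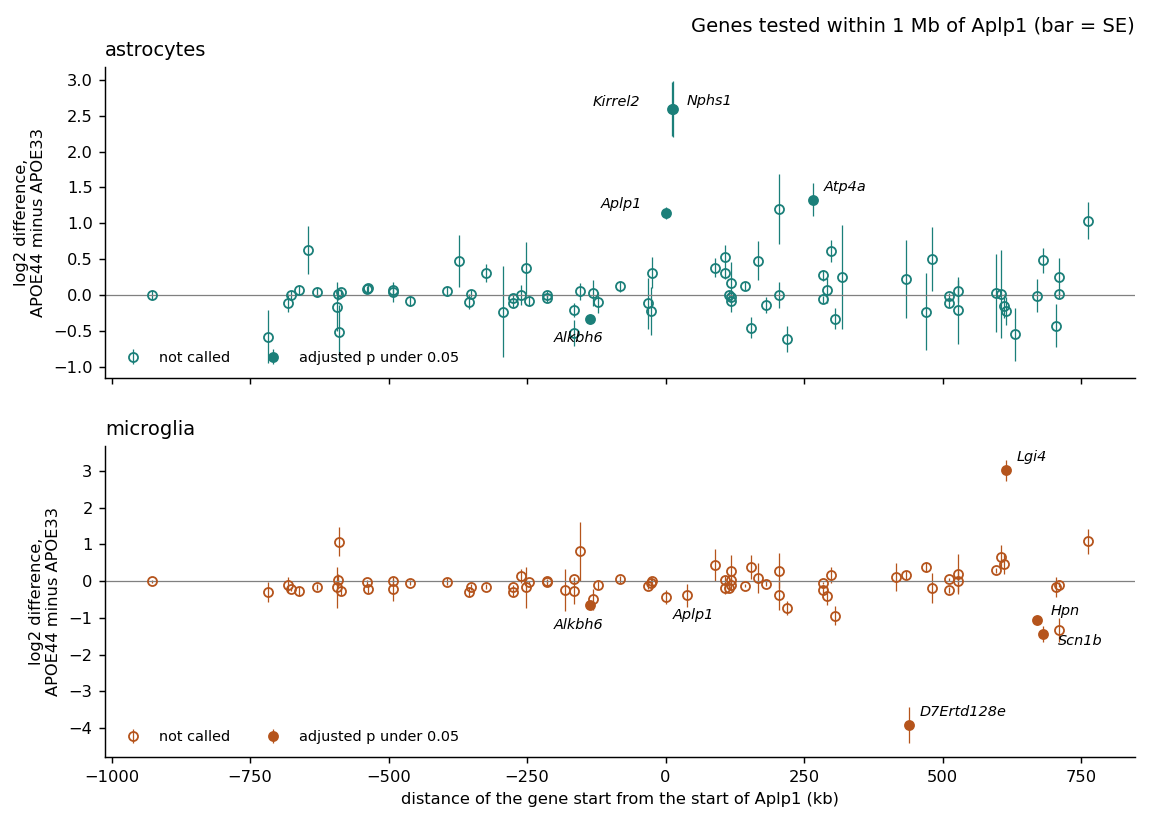
Log2 difference of APOE44 against APOE33 (vertical axes, which differ in scale) for genes within 1 Mb of Aplp1, by distance of the gene start from that of Aplp1 in kb, in astrocytes and in microglia. Filled points are called at adjusted p under 0.05 and bars are SE. Kirrel2 (2.59), Nphs1 (2.60) and Aplp1 (1.14) stand together near 0 kb in astrocytes, and Aplp1 (-0.44) is not called in microglia.

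The remaining genes of the pathway were followed through 4 lists. Between the cell types, 90.9% of all genes tested were called in batch 1 and 89.5% in WT, so these counts of calls set no list apart. Among 8 other secretase subunits and relatives, all were called between the cell types in batch 1, 6 higher in microglia (median 1.13 log2, against -0.25 over all genes). Adam17, another alpha-secretase, was at 3.65 (SE 0.042), Aph1c at 2.75 (SE 0.035) and Bace2, the relative of Bace1, at -8.77 (SE 0.206). Per length, the ratio of Adam10 to Adam17 was 6.87 ± 0.439 in astrocytes and 1.98 ± 0.603 in microglia (SD, n = 22 each). In WT microglia this ratio was 1.12 ± 0.176 and in APOE33 microglia 2.56 ± 0.222 (SD, n = 6).

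Of 6 TspanC8 tetraspanins, which escort ADAM10 to the cell surface, all 6 were called in batch 1, 4 higher in microglia (median 0.27). Tspan14 was at 3.18 (SE 0.0575), Tspan17 at 0.24 (SE 0.039), Tspan5 at -2.04 (SE 0.042) and Tspan15 at -8.29 (SE 0.228). The 21 adaptors and sorting factors were all called, 15 higher (median 0.68), with Picalm at 2.76, Gsap at 2.503, Itm2b at 2.16 and Gga3 at 2.13. The 14 other amyloid-degrading proteases were all called, 8 higher (median 0.61), with Plau at 8.85, Ctsd at 5.03, Ctsb at 2.73 and Ace at -8.32. In WT, 8 of 8 secretase genes (6 higher), 5 of 5 TspanC8 genes (3 higher), 20 of 21 adaptors (14 higher) and 13 of 13 proteases (8 higher) were called.

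None of the 4 lists had a gene called in APOE44 against APOE33 by edgeR's quasi-likelihood test, in either cell type (0 of 8, 5, 21 and 13 tested in astrocytes and 0 of 8, 6, 21 and 12 in microglia). Of all genes tested, 0.703% were called in astrocytes and 0.840% in microglia, so a count of 0 sets no list apart. In astrocytes 1, 0, 4 and 3 of the lists' genes had an unadjusted p under 0.05 (9.91% of all genes tested), and in microglia 1, 1, 2 and 4 (11.9%). DESeq2 called 1 protease in each cell type, Ece2 in astrocytes and Mmp9 in microglia, and 0 genes of the other 3 lists. The genes with the smallest adjusted p were Adam9 (-0.19, adjusted p = 0.36), Tspan33 (0.31, 0.51), Itm2c (0.23, 0.28) and Ece2 (0.31, 0.17) in astrocytes. In microglia they were Adam9 (0.09, 0.38), Tspan33 (-0.41, 0.28), Gga3 (-0.15, 0.15) and Mmp9 (-1.66, 0.067).

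In KO against APOE33, 17.2% of all genes tested were called in astrocytes and 22.7% in microglia, and the lists' counts are to be read against these shares. In these comparisons 1 of 8 other secretase genes was called in astrocytes (Aph1c, 0.30) and 3 of 8 in microglia (Adam9 0.32, Aph1c 0.42 and Aph1b 0.53). Of the TspanC8 genes, 4 of 5 were called in astrocytes, among them Tspan17 (0.28), Tspan15 (-0.71) and Tspan5 (0.29). In microglia 2 of 6 were, Tspan33 (-2.17, SE 0.188, adjusted p = 5.4e-06) and Tspan5 (-0.29). Of the adaptors, 6 of 21 were called in astrocytes, 2 higher and 4 lower (Gsap 0.48, Apba2 0.74 and Lrp10 -0.26 among them), and 2 of 21 in microglia (Apbb2 -0.14 and Rtn3 0.12). Of the other proteases, 5 of 13 were called in astrocytes, 4 higher (Ece2 0.58, Plau 0.67 and Thop1 -0.23 among them), and 5 of 12 in microglia, all higher (Pitrm1 0.48, Ece1 0.70 and Mmp14 1.24 among them).

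Against APOE44, where 22.7% of all genes tested were called in astrocytes and 26.9% in microglia, KO astrocytes had 2 of 8 other secretase genes (Aph1c 0.35 and Adam9 0.33), 4 of 5 TspanC8 genes (Tspan17 0.33, Tspan5 0.31 and Tspan15 -0.66 among them), 8 of 21 adaptors (Itm2c -0.63, Rtn3 -0.28 and Lrp10 -0.29 among them) and 7 of 13 proteases (Ctsb 0.71, Ctsd 0.52 and Thop1 -0.26 among them) called. KO microglia had 3 of 8 (Aph1c 0.52, Aph1b 0.52 and Adam9 0.23), 1 of 6 (Tspan33 -1.77), 4 of 21 (Gga3 0.22, Apba1 -0.25 and Rtn3 0.15 among them) and 7 of 12, all higher (Pitrm1 0.46, Mmp14 0.94 and Ece1 0.48 among them). Tspan33, like Adam10, was lower in KO microglia than in either APOE genotype.

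Against WT, where batch and genotype cannot be told apart, 38.3% to 41.7% of all genes tested were called in astrocytes, and the lists' counts are to be read against that share. In APOE33, 6 of 8 secretase genes were called (Adam9 0.38 and Aph1c -0.23 among them), 3 of 6 TspanC8 genes (Tspan33 0.73, Tspan17 0.35 and Tspan15 0.42), 10 of 21 adaptors (Lrp10 0.53, Gsap -0.61 and Itm2c 0.56 among them) and 10 of 13 proteases (Mmp14 0.47, Htra1 0.65 and Plau -0.89 among them). In APOE44 the counts were 4 (Aph1c -0.28 and Psenen 0.17 among them), 3 (Tspan33 1.03, Tspan17 0.32 and Tspan15 0.38), 12 (Lrp10 0.56, Itm2c 0.79 and Apbb1 0.40 among them) and 9 (Mmp14 0.53, Ece1 1.37 and Htra1 0.58 among them). In KO they were 5 (Adam9 0.56, Aph1a 0.24 and Psenen 0.24 among them), 4 (Tspan17 0.66, Tspan33 0.66 and Tspan14 -0.35 among them), 9 (Apba2 1.68, Sort1 0.49 and Lrp1 0.66 among them) and 8 (Ctsb 1.05, Mmp14 0.39 and Ctsd 0.77 among them). Tspan33, Tspan17 and Mmp14 were higher than in WT in all 3.

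In microglia Aph1a, a gamma-secretase subunit like Ncstn, and Psenen were higher than in WT in all 3 genotypes. Of all genes tested, 42.4% to 45.4% were called. In APOE33, 4 of 8 secretase genes were called (Aph1a 0.38, Adam17 -0.41 and Psenen 0.27 among them), 3 of 6 TspanC8 genes (Tspan17 -0.49, Tspan14 0.47 and Tspan33 0.84), 13 of 21 adaptors (Lrp10 0.46, Rtn4 -0.72 and Itm2c 0.88 among them) and 5 of 12 proteases (Mmp2 0.98, Plau -0.50 and Pitrm1 -0.16 among them). In APOE44 the counts were 4 (Aph1a 0.43, Psenen 0.31 and Aph1c -0.45 among them), 3 (Tspan17 -0.45, Tspan14 0.36 and Tspan33 0.43), 14 (Rtn4 -0.68, Lrp10 0.40 and Sorl1 1.204 among them) and 6 (Mmp2 1.13, Thop1 -0.26 and Mmp14 0.58 among them). In KO they were 5 (Aph1a 0.42, Aph1b 0.50 and Psenen 0.26 among them), 3 (Tspan33 -1.34, Tspan14 0.47 and Tspan17 -0.36), 12 (Sorl1 1.51, Lrp10 0.41 and Rtn4 -0.67 among them) and 5 (Mmp14 1.51, Pitrm1 0.33 and Ece1 0.51 among them).

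The genes most like each member over the 16 batch 1 libraries of a cell type are given by Pearson's r of log2 CPM, as a description, since libraries share genotype, depth and composition. In astrocytes App was nearest Camkk2 (0.948), S100a16 (0.927) and Lrpap1 (0.923), and Aplp1 nearest Thnsl1 (0.897), Eps8l1 (0.886) and Cav1 (0.872). Psen2 was nearest Orai1 (0.955), Nr1h2 (0.95) and Asb6 (0.943), and Ncstn nearest Ddost (0.942) and Dhcr7 (0.915). Adam10 was nearest Actr2 (0.948), Galnt1 (0.913) and Csgalnact2 (0.901), Mme nearest Ivns1abp (0.919), Ercc6l2 (0.902) and Cpd (0.901), and Ide nearest Tcaim (0.864), Glycam1 (0.863) and Vps4a (0.835). Aplp2 (Zfp239 0.861, Ccdc106 0.83 and Tmem44 0.829) and Bace1 (Ppm1l 0.807, Zswim6 0.788 and Lamc1 0.787) had weaker matches. In microglia App was nearest Parvb (0.972), Pmvk (0.967) and Crtap (0.961), and Adam10 nearest Tgfbr1 (0.940), Ivns1abp (0.924) and Ccng2 (0.918). Ide was nearest Cd200r1 (0.965), Colec12 (0.962) and Aacs (0.958), and Aplp2 nearest Mcoln3 (0.933), Cd63 (0.922) and Creg1 (0.921). Aplp1 was nearest Wwtr1 (0.895), Pex14 (0.881) and Fzd8 (0.874), Psen2 nearest Ptpra (0.89), S100a13 (0.886) and Pkp4 (0.871), and Ncstn nearest Ndufa10 (0.89), Npc2 (0.85) and Capzb (0.84). The weakest best match was that of microglial Bace1, whose nearest genes were Uggt2 (0.73), Tlr6 (0.711) and Crtc1 (0.708). No gene pattern was sought for Mme in microglia, whose level is below the minimum used.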

How the data were processed

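Per the labels' protocols, total RNA was extracted with a silica-column kit, libraries were made with a NEBNext Ultra kit and sequenced as paired ends. The deposited values are raw counts per gene. The submitters' processing notes name STAR 2.5.3a, featureCounts, edgeR 3.26.8 and DESeq2 3.14, and name hg38, a human build, although the gene identifiers are of mouse. No source used here gives the build of these counts. Of 54146 identifiers, 54079 matched GENCODE mouse release M21, which gave names, positions and exon lengths. Between 62.4% and 78.7% of the counts from 1 to 9 in a library were even, so a count may stand for a read end and not a fragment, and limits from counts cover counting error only.

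Counts were tested with edgeR 4.0.16 (R 4.3.3): filterByExpr, TMM, robust quasi-likelihood F test, sex as covariate (within cell type where both were fitted), Benjamini-Hochberg over all genes tested, called at adjusted p under 0.05. Cell types were compared in batch 1 and in WT, and genotypes within a cell type. APOE33, APOE44 and KO were fitted on 16 libraries, comparisons with WT on all 22. Differences between cell types were an interaction in the 32 libraries of batch 1. Alternatives were DESeq2 1.42.0, other size factors, no filter, no sex term, a replicate block, a pooled fit and each library left out. The scripts were tested on simulated data. RPKM was computed from CPM and exon length. In WT, same-numbered astrocyte and microglial libraries deviated together (r of 0.115 to 0.319 over 13523 genes, 6 of 6 pairs over 0.1), so the numbers pair these samples by the data, and the blocked fit changed no member's call there.

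The members and lists were chosen with earlier results of these data known. Every member is named. Of each pathway list, the 4 genes with the smallest adjusted p between cell types in batch 1 and the 3 smallest among those called in each genotype comparison (1 where none is called) are named, and the 3 genes of highest correlation with a member. Some genes that this rule names are not reported here.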

Additional observations from a re-analysis of the deposited data

Results flagged for a closer look

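In 3 of 72 groups of a member's libraries, 1 library stood apart from the rest by Dixon's criterion, and chance flags about 1 group in 20. WT astrocyte replicate 6 had the lowest Aplp1 of its group, 34.08 CPM, where the nearest library had 44.3 and the highest 48.5 CPM. KO astrocyte replicate 4 had the lowest Aplp1 of the 4, 79.84 CPM, where the nearest had 91.6 and the highest 93.6 CPM. APOE44 microglial replicate 6 had the highest Ncstn, 216.3 CPM, where the nearest had 203.4 and the lowest 198.0 CPM. The Aplp1 calls in astrocytes held without either library.

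For 5 members, a genotype effect differed between the cell types by the interaction test (microglia minus astrocytes, log2, edgeR's quasi-likelihood test with Benjamini-Hochberg adjustment). Aplp1 did so in APOE44 against APOE33 (-1.58, adjusted p = 3.0e-04), where 0.296% of all genes tested were called. It also did so in KO against APOE33 (-1.34, adjusted p = 8.4e-04), where 12.7% were called. In KO against APOE33 the others were App (0.37, adjusted p = 0.033), Ncstn (0.24, 0.028), Adam10 (-0.25, 0.040) and Ide (0.24, 0.0076). App, Ncstn and Adam10 lost the call without any of several single libraries and with the replicate number as a block (adjusted p of 0.055, 0.051 and 0.071), and Ncstn (0.12) and Ide (0.055) lost it with library totals alone.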

How the results depend on the processing

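Over the 9 genes and 16 comparisons, 872 of 897 results under other settings kept their side of the threshold, 18 lost the call and 7 gained it. Of the calls 0 reversed direction, whereas 22 results that were not called changed sign. With 1 library left out, 2918 of 2976 kept their side of the threshold, 47 lost the call and 11 gained it. Again 0 calls reversed direction, and 75 results that were not called changed sign. The number of members called moved by over 1.5 times in few cases. KO against APOE44 in astrocytes called 1 with the replicate block (2 without it), where 3146 and 4653 of all genes tested were called. For the difference of the KO effect between cell types, all genes gave 3152 calls with library totals alone, 2141 with no filter and 2169 with the replicate block. The main fit gave 2755 and DESeq2 3739. Of the members, this difference called 3 with library totals alone, 3 with no filter and 2 with the replicate block (5 in the main fit and 6 by DESeq2). With a library left out, that count was 2 to 5, and the count was 1 to 2 for KO against APOE33 in astrocytes, 1 to 2 for KO against APOE44 in astrocytes and 2 to 4 for KO against APOE44 in microglia. Over all genes these 4 counts were 2074 to 2947, 1836 to 3909, 3323 to 5195 and 3337 to 5012. Genotype groups share only replicate numbers. Their same-number correlations were not over 0.1 in every pair, nor were those between cell types in APOE33 (3 of 6 pairs) and KO (2 of 4). In APOE44 they were (6 of 6). The medians between cell types in APOE33 and KO were 0.092 and 0.098, against -0.052 and -0.031 for other numbers. Whether the numbers pair the batch 1 samples is therefore not settled, and the block was used there as an alternative setting. It took away the calls of App (adjusted p = 0.094) for KO against APOE44 in astrocytes, Aplp1 (0.10) for KO against APOE33 and Adam10 (0.053) for KO against APOE44 in microglia. It also took away App (0.061) and Aplp2 (0.0775) in APOE44 and Aplp2 (0.062) in KO against WT in astrocytes, and App (0.055), Ncstn (0.051) and Adam10 (0.071) in the difference of the KO effect. It added Aplp2 for KO against APOE33 (0.042) and APOE44 against WT (0.045) in microglia. With no filter on low counts Aplp1 lost its call for KO against APOE33 in microglia (0.061), and Ncstn (0.064) and Adam10 (0.063) lost theirs in the difference of the KO effect. Adam10 also lost that call with no sex term (0.065).

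Calls over all genes in APOE44 against APOE33 depended on the tool. In astrocytes they were 144, and 319 by DESeq2, 70 with the block, 229 with all 22 libraries and 85 to 155 with a library left out. In microglia they were 144, 418, 51, 224 and 81 to 191, and for the difference between cell types 64, 381 and 38, and 40 to 403 with a library left out. KO against APOE33 in astrocytes called 3522 genes, 1892 with the block and 1836 to 3909 with a library left out. The cause was not tested. Depth limits only Mme in microglia.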
